A study of Sus scrofa with 79 samples.

Results

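The genes of the insulin-like growth factor (IGF) system and the growth hormone receptor were followed in the small intestine and blood of piglets. The members were listed by name as IGF1, IGF2, IGF1R, IGFBP1, IGFBP2, IGFBP3, IGFBP5 and GHR, and a probe belonged to a member when RefSeq gave its transcript that symbol. Of the 8 genes, 7 had a probe among the 36787 genes of the array, and no probe matched IGFBP1. The 7 genes had 14 of the 43603 probes, with 5 for IGF2, 2 each for GHR, IGF1R and IGFBP2, and 1 each for IGF1, IGFBP3 and IGFBP5.

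Growth hormone binds GHR, a receptor that signals through the kinase JAK2 and the STAT5 proteins, and in liver and other tissues this raises the transcription of IGF1. IGF1 and IGF2 are secreted growth factors that signal through the tyrosine kinase receptor IGF1R, while the binding proteins hold them in the circulation and in the tissue and set how much ligand reaches the receptor. In the intestine IGFs are made mainly by mesenchymal cells under the epithelium and are known for promoting growth of the mucosa and the muscle layer, and milk also carries them.

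RNA was hybridised to 79 1-colour Agilent pig arrays, each with a pool of 4 piglets of 1 treatment, and at day 8 the same pools supplied blood, jejunum and ileum. T1 piglets were left undisturbed, T2 piglets received 0.1 ml tulathromycin, an antibiotic (2.5 mg/kg), under the skin at day 4, and T3 piglets received that injection together with docking, clipping and weighing. Jejunum and ileum were sampled at days 8, 55 and 176 after birth and whole blood at day 8. Each group of tissue, age and treatment held 4 pools, except for 3 pools in ileum T2 at day 8, in T2 of both tissues at day 55, and in jejunum T2 and ileum T3 at day 176. The piglets of all groups came from the same farm, and the days 55 and 176 arrays are other animals than those of day 8, since the piglets sampled at day 8 were killed.

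Values are log2 of the signal after quantile normalization, so a difference of 1 is a doubling of signal, and a level is comparable within a gene but not between genes. A gene was called changed in limma at an adjusted p below 0.05 over all genes and a fold change above 1.5. Of the spots, 34.9% to 44.1% were well above background on the blood arrays and 42.4% to 75.2% on the tissue arrays. The lowest tissue arrays included the 4 of ileum T3 at day 55 (42.4% to 52.0%), which had slide 1 to themselves, whereas the other ileum arrays of that age lay between 62.7% and 73.2%. Jejunum T1 at day 176 also held an array in that low range (47.0%), in a group that reached 74.8%. Every group lay on 1 slide and no slide held tissue of 2 ages, so that age and slide cannot be told apart. No slide held both jejunum and ileum of day 55, and none held both blood and tissue of day 8. Slide therefore cannot be told apart from tissue at day 55, which also enters the tissue differences in the changes to and from that age. The same holds for blood against the tissues. Ileum T1 pool 11 of day 8 stood apart in the members themselves, with the highest IGF1 and IGFBP2 and the lowest IGF2, IGF1R, GHR, IGFBP3 and IGFBP5 of the 11 ileum arrays of that age, and values without it are given where they change a call. The ileum label could not be checked with FABP6, the ileal bile acid binding protein, whose log2 level was 5.82 to 16.2 in jejunum and 5.62 to 16.5 in ileum at day 8.

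All 7 measured genes were lower in ileum at day 55 than at day 8, and in jejunum 4 were lower and IGF1 alone was higher. In the ileum the median log2 difference of the members was −1.96, beside 0.11 over all genes, and 23% of all genes were called lower and 24.4% higher. In the jejunum the median was −1.25, beside 0.03 over all genes, with 18.9% of all genes lower and 18.1% higher. These arrays hold whole tissue, in which fewer cells of a type and less RNA per cell cannot be told apart.

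**Figure D1:**
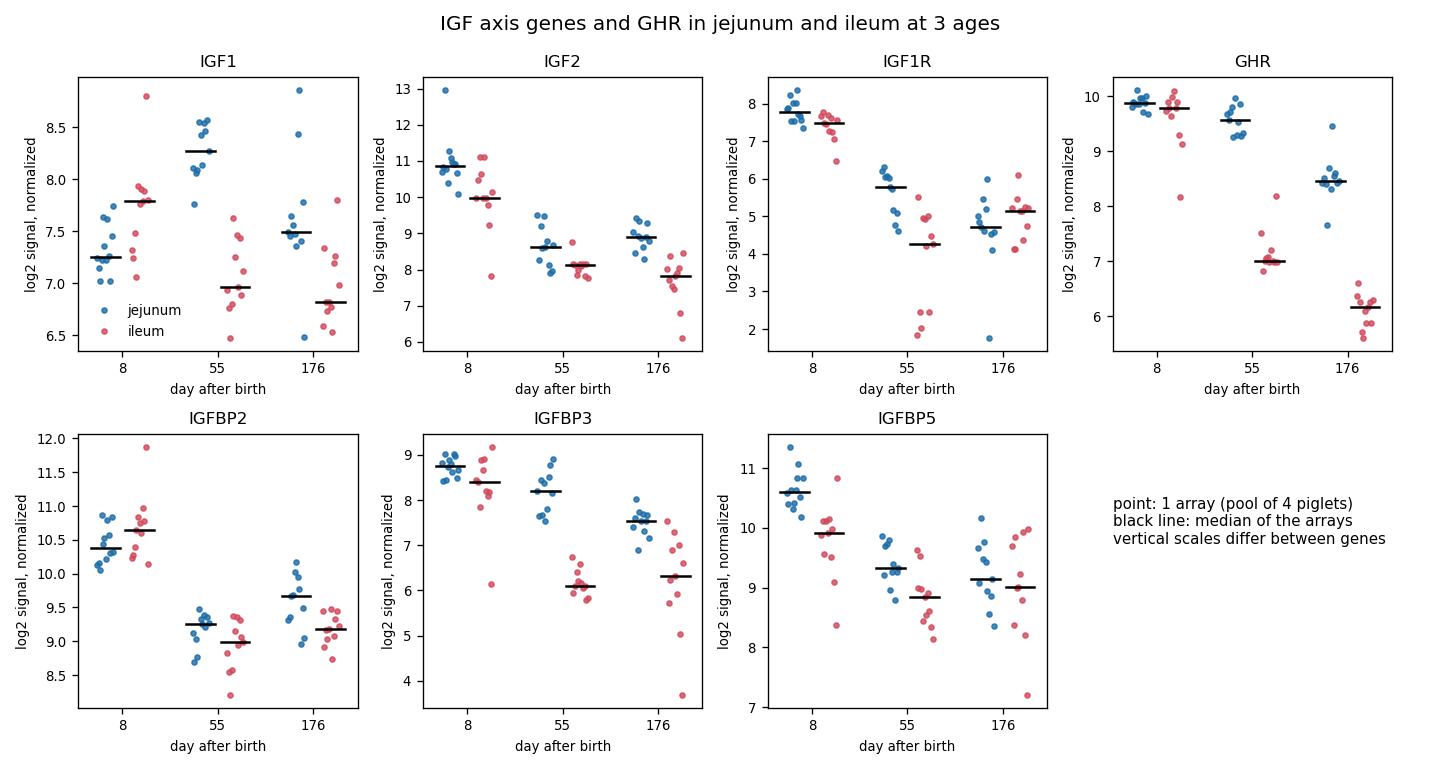
Normalized log2 signal (vertical axis) of the 7 measured genes against age in days, with 1 point per array (jejunum blue, ileum red) and black lines at the medians. IGF1 in jejunum is highest at day 55 (median 8.28), while in ileum GHR steps down from a median of 9.78 to 6.997 and then 6.17.

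Among the ligands, IGF1 was the gene for which the tissues went in opposite directions. In jejunum its lowest, median and highest level was 7.02, 7.25 and 7.74 at day 8, 7.76, 8.28 and 8.57 at day 55, and 6.49, 7.50 and 8.86 at day 176. In ileum the same values were 7.06, 7.79 and 8.80 at day 8, 6.47, 6.96 and 7.62 at day 55, and 6.53, 6.82 and 7.80 at day 176. The jejunum arrays of days 8 and 55 did not overlap, whereas those of ileum did. From day 8 to day 55 IGF1 rose in jejunum by 0.95 on the log2 scale (SE 0.15, 1.93-fold, limma adjusted p = 5.9e-07) and fell in ileum (log2 difference −0.64, SE 0.16, adjusted p = 0.000407).

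The difference between these changes of IGF1 was −1.59 (SE 0.22, limma adjusted p = 6.25e-08). It was called under all 75 settings tried, with values from −2.06 to −1.25. The fall in ileum was not called without ileum T1 pool 11 of day 8 (log2 difference −0.56, 1.47-fold) or after scaling to the 75th percentile (−0.57, 1.48-fold). Between days 55 and 176 IGF1 fell in jejunum (−0.64, SE 0.16, adjusted p = 0.00064), a call that ended after scaling to the 75th percentile (−0.47, 1.39-fold) or normexp correction (−0.44, 1.35-fold) and without jejunum T1 pool 12 (−0.51) or T2 pool 6 (−0.57) of day 176. At day 176 the jejunum level differed from that of day 8 by 0.31 (adjusted p = 0.071), which was not called.

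IGF2, the growth factor with high expression before and shortly after birth, was the ligand that fell in both tissues. Its level in jejunum had a lowest, median and highest value of 10.08, 10.87 and 12.97 at day 8, 7.90, 8.61 and 9.50 at day 55, and 8.30, 8.90 and 9.43 at day 176. In ileum these were 7.81, 9.99 and 11.12, then 7.77, 8.11 and 8.75, and then 6.10, 7.83 and 8.46. Jejunum arrays of day 8 lay above all later ones, and in ileum pool 11 of T1 was the lowest array at day 8 and again at day 176. By day 55 IGF2 fell 4.90-fold in jejunum (log2 difference −2.29, SE 0.24, limma adjusted p = 1.43e-11) and 3.89-fold in ileum (−1.96, SE 0.25, adjusted p = 1.52e-09).

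After day 55 the level of IGF2 changed by 0.24 in jejunum and −0.40 in ileum, and neither was called. The 2 tissues were not shown to differ in their IGF2 change from day 8 to day 55 (0.34, 95% interval from −0.36 to 1.03). For this difference the 4 IGF2 probes used gave −0.15, 0.03, 0.26 and 1.20.

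The 2 receptors behaved differently from each other. IGF1R fell in both tissues after day 8. In jejunum its lowest, median and highest level was 7.35, 7.79 and 8.37 at day 8, 4.60, 5.78 and 6.30 at day 55, and 1.76, 4.73 and 5.98 at day 176. In ileum it was 6.47, 7.48 and 7.77 at day 8, 1.84, 4.26 and 5.50 at day 55, and 4.12, 5.14 and 6.10 at day 176. All day 8 arrays lay above all later arrays of the same tissue. These values rest on 1 of its 2 probes, since the other had a marked spot on ileum T3 pool 2 of day 176 and was dropped. From day 8 to day 55 IGF1R fell by 2.18 in jejunum (SE 0.28, limma adjusted p = 5.28e-09) and by 3.50 in ileum (SE 0.29, adjusted p = 2.61e-15) on the log2 scale.

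The size of these IGF1R changes depended on how dim values were treated, although both falls from day 8 to day 55 were called in 75 of 75 settings (from −2.67 to −1.34 in jejunum and from −3.79 to −1.40 in ileum). At day 55 the IGF1R probe used was well above background on 6 of 11 ileum arrays and 8 of 11 jejunum arrays. The dropped probe was so on 8 of 11 and 11 of 11. The 3 lowest of the 11 ileum arrays were T3 pools 1, 4 and 3, from the slide with the lowest detection. The difference between the tissues in the change of IGF1R to day 55 was −1.33 (adjusted p = 0.00756), but −0.36 in T1 arrays alone (adjusted p = 0.742), −0.07 after scaling to the 75th percentile and −0.06 after normexp background correction. From day 55 to day 176 IGF1R was called lower in jejunum (−0.96, adjusted p = 0.00519) and higher in ileum (1.05, adjusted p = 0.00322). Neither call held under the other scaling, where the jejunum difference was 0.0039 and the ileum difference 0.43. Both calls also ended after normexp correction (−0.27 in jejunum and 0.20 in ileum). In T1 arrays alone neither was called (−1.16, limma adjusted p = 0.0715, and 0.85, adjusted p = 0.204). The ileum call ended as well without ileum T3 pool 2 of day 176 (0.54, 1.45-fold).

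GHR showed the clearest separation of the tissues. Its jejunum level had a lowest, median and highest value of 9.67, 9.88 and 10.12 at day 8, 9.25, 9.56 and 9.97 at day 55, and 7.65, 8.46 and 9.45 at day 176. In ileum the values were 8.17, 9.78 and 10.09, then 6.82, 6.997 and 8.19, and then 5.60, 6.17 and 6.61. At days 55 and 176 every jejunum array lay above every ileum array of the same age, and the highest ileum array of day 55 was T1 pool 11. The order of the group means was jejunum day 8, ileum day 8 and jejunum day 55, whose neighbours did not differ beyond their 95% intervals, followed by jejunum day 176, ileum day 55 and ileum day 176, each of which was lower than the one before.

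Between days 8 and 55 GHR fell 5.48-fold in ileum (log2 difference −2.45, SE 0.14, limma adjusted p = 4.67e-21), while in jejunum the difference was −0.32 (SE 0.14, adjusted p = 0.0551) and was not called. The changes differed by −2.14 (SE 0.20, adjusted p = 6.7e-12). From day 55 to day 176 GHR fell by 1.04 in jejunum (adjusted p = 3.71e-08) and by 1.03 in ileum (adjusted p = 9.71e-08), with a difference of 0.0069 between the tissues (95% interval from −0.40 to 0.41). After normexp background correction these were −0.84 in jejunum and −0.55 in ileum (1.46-fold), and the ileum call was lost. Over the whole period the fall was 2.56-fold in jejunum and 11.2-fold in ileum (log2 difference −3.49, adjusted p = 1.67e-27). Both GHR probes gave the same ileum change (−3.48 and −3.49).

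**Figure D2:**
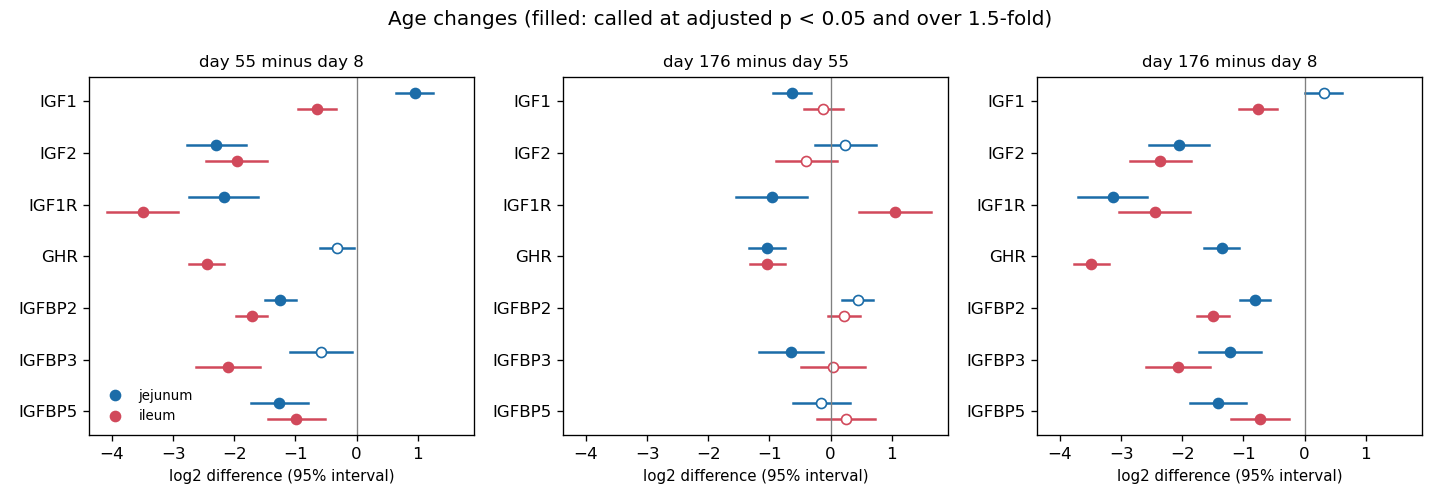
Log2 difference (horizontal axis) between ages for each gene, with 95% intervals from limma, jejunum in blue and ileum in red, and filled points for called changes. IGF1 lies at 0.95 in jejunum and −0.64 in ileum in the first panel, and GHR at −0.32 and −2.45.

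The binding proteins were lower after day 8 as well, with differences in timing. IGFBP2, a binding protein with a preference for IGF2, had a lowest, median and highest level of 10.05, 10.38 and 10.86 in jejunum at day 8 and of 8.69, 9.26 and 9.48 at day 55. In ileum the values were 10.14, 10.65 and 11.88 at day 8 and 8.20, 8.98 and 9.37 at day 55, so that the ages did not overlap in either tissue. IGFBP2 fell 2.38-fold in jejunum (log2 difference −1.25, SE 0.13, limma adjusted p = 3.12e-12) and 3.29-fold in ileum (−1.72, SE 0.13, adjusted p = 6.89e-17). By day 176 it was 9.68 in jejunum and 9.18 in ileum (medians). Its change from day 8 to day 176 was larger in ileum by −0.69 (adjusted p = 0.00294), but in T1 arrays alone by −0.48 (adjusted p = 0.337).

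IGFBP3, the main carrier of IGFs in plasma, resembled GHR from day 8 to day 55 but not in ileum after that. In jejunum its lowest, median and highest level was 8.43, 8.76 and 9.01 at day 8, 7.54, 8.19 and 8.91 at day 55, and 6.90, 7.54 and 8.03 at day 176. In ileum it was 6.13, 8.39 and 9.18, then 5.79, 6.10 and 6.74, and then 3.68, 6.33 and 7.54. The arrays of days 8 and 55 overlapped in ileum only through T1 pool 11 of day 8. The fall to day 55 was 4.31-fold in ileum (log2 difference −2.11, SE 0.26, limma adjusted p = 8.13e-10), and the jejunum difference of −0.58 (adjusted p = 0.0549) was not called, with a test of the difference at −1.53 (adjusted p = 0.000673). From day 55 to day 176 jejunum IGFBP3 was called lower (−0.64, adjusted p = 0.0381), a call close to the threshold that held in 65 of 75 settings. It ended when pool 10 or 12 of T1, pool 5 of T2 or pool 1 or 3 of T3 of day 55, or pool 12 of T1, 6 of T2 or 4 of T3 of day 176, was left out of the jejunum.

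IGFBP5, a binding protein of mesenchymal and muscle cells, had a lowest, median and highest level of 10.19, 10.61 and 11.36 in jejunum at day 8, 8.80, 9.33 and 9.86 at day 55 and 8.35, 9.14 and 10.17 at day 176. In ileum the values were 8.37, 9.92 and 10.84, then 8.14, 8.84 and 9.63, and then 7.20, 9.01 and 9.99. Day 8 lay above the later ages without overlap in jejunum only. The fall to day 55 was −1.26 in jejunum (SE 0.23, limma adjusted p = 7.01e-06) and −0.99 in ileum (SE 0.23, adjusted p = 0.000322), and neither tissue changed further by day 176 to a called extent. At day 176 ileum was still lower than at day 8 (−0.73, adjusted p = 0.00629), a call that ended in T1 arrays alone (−0.74, adjusted p = 0.131), after normexp correction (−0.57, 1.49-fold), and without ileum T1 pool 11 (−0.55) or T3 pool 3 (−0.58) of day 176.

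Counted over the later comparisons, 4 of 7 genes were lower and none higher in jejunum at day 176 vs. day 55, namely IGF1, IGF1R, IGFBP3 and GHR, where 16.9% of all genes were lower and 20.1% higher. In ileum over the same period GHR was lower and IGF1R higher, beside 12.9% and 15.4% of all genes. At day 176 vs. day 8, 6 of 7 genes were lower in jejunum, all but IGF1, beside 22% of all genes lower and 26.9% higher. In ileum all 7 were lower beside 22.7% of all genes, and 25.9% of all genes were higher. A difference between the tissues in the change was called for 4 of 7 genes from day 8 to day 55 (IGF1, IGF1R, IGFBP3 and GHR), beside 34.4% of all genes. For 1 gene, IGF1R, it was called from day 55 to day 176 (2.01, adjusted p = 0.000142 in limma), beside 30.6%, but not after scaling to the 75th percentile (0.43, adjusted p = 0.214) or normexp correction (0.46, 1.38-fold). For 3 genes, IGF1, IGFBP2 and GHR, it was called from day 8 to day 176, beside 20.8%. In T1 arrays alone the calls of IGF1 (−1.02, adjusted p = 0.0571 in limma) and IGFBP2 ended. For the period from day 55 to day 176, 1 of 7 is below the share of all genes, and that count says nothing particular about the members.

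The changes from day 8 to day 55 had the same sign in each of the 3 treatments for all 7 genes in both tissues. GHR in ileum fell by 1.83 to 2.86 and IGF1 in jejunum rose by 0.85 to 1.09 across the treatments. From day 55 to day 176 the sign differed between treatments for IGF2 and IGFBP5 in jejunum and for IGF1, IGFBP2 and IGFBP3 in ileum, none of which was called.

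Set side by side at 1 age, the tissues were most alike at day 8. There, 2 of 7 genes were lower in ileum than in jejunum, beside 2.04% of all genes, and none was higher, beside 0.458%. IGF2 differed by −0.92 (SE 0.24) and IGFBP5 by −0.87 (SE 0.23), both with a limma adjusted p of 0.0236. Both calls ended without ileum T1 pool 11 (−0.75 and −0.73), jejunum T3 pool 3 (−0.73 and −0.80) or ileum T2 pool 7 (−0.85 and −0.81), and that of IGF2 also without ileum T2 pool 5 (−0.85). Jejunum T3 pool 3 held the highest jejunum value of both genes (12.97 and 11.36).

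At day 55, 5 of 7 genes were lower in ileum, beside 20% of all genes, and none was higher, beside 19.8%. GHR was 5.29-fold lower (log2 difference −2.40, SE 0.14, limma adjusted p = 3.3e-19), IGFBP3 3.93-fold (−1.98, SE 0.26) and IGF1 2.27-fold (−1.18, SE 0.16), each without overlap between the arrays of the tissues. IGF1R was called at −1.73, but at −0.85 in T1 arrays alone (adjusted p = 0.174) and with a fold of 1.33 after normexp correction. IGFBP5 lay at the threshold (−0.59, 1.505-fold, adjusted p = 0.0324 in limma) and was called in 59 of 75 settings. Its call ended when ileum pool 2, 4, 5, 7, 11 or 12 or jejunum pool 1, 3, 4, 5, 9, 11 or 12 of day 55 was left out. The IGFBP5 call also ended after scaling to the 75th percentile (−0.57, 1.48-fold), after normexp correction (−0.46, 1.38-fold) and in T1 arrays alone (−0.70, limma adjusted p = 0.166). IGF2 (−0.58, 1.495-fold) and IGFBP2 (−0.22) were not called. IGF2 was called in 9 of 75 settings, and its probes gave from −1.14 to 0.30.

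At day 176, 4 of 7 genes were lower in ileum, beside 14.8% of all genes, and none was higher, beside 14%. GHR was again 5.27-fold lower (−2.40, limma adjusted p = 2.02e-19), followed by IGFBP3 (−1.29), IGF2 (−1.22) and IGF1 (−0.66). The IGF1 call ended in T1 arrays alone (−0.33, adjusted p = 0.403 in limma), after normexp correction (−0.45, 1.37-fold), and without jejunum T1 pool 9 (−0.53) or T2 pool 8 (−0.55). IGFBP2 differed by −0.44 (adjusted p = 0.00496), at 1.36-fold below the fold required. IGF1R differed by 0.28 (95% interval from −0.30 to 0.86) and IGFBP5 by −0.19.

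Several cell type markers moved with these genes, and others moved the opposite way. Of the listed markers, 3 of 8 for enterocytes (FABP1, FABP2, APOA4), 1 of 7 for fibroblasts (DCN), 3 of 6 for smooth muscle and 2 of 3 for endothelium had a probe. From day 8 to day 55 none of the 3 enterocyte markers was called in jejunum, whereas all 3 were lower in ileum, with a summed log2 level of 18.7 to 19.03 at day 8 and 16.5 to 17.9 at day 55. In jejunum the sum was 18.7 to 19.1 at both ages and 17.3 to 18.8 at day 176, and in ileum it was 16.1 to 17.1 at day 176. In jejunum at day 176 APOA4 alone had a lower mean than at day 8 (15.47 and 18.20), with FABP1 (17.07 and 16.88) and FABP2 (16.58 and 16.18) not lower. FABP6, listed for ileal enterocytes and not in the sum, had higher means after day 8. They were 10.94, 17.03 and 16.51 in jejunum and 11.36, 18.10 and 18.45 in ileum at days 8, 55 and 176. Thus the enterocyte sum, GHR and IGFBP3 were each lower in ileum than in jejunum at days 55 and 176, and the part of enterocytes in the GHR and IGFBP3 values was not tested.

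Smooth muscle, fibroblast and endothelial markers fell in both tissues by day 55, in 3 of 3, 1 of 1 and 2 of 2 cases. DCN went from 12.5 to 13.2 in jejunum at day 8 down to 11.7 to 12.5 at day 55, and the smooth muscle sum from 14.2 to 15.1 down to 12.4 to 13.4. IGF2, IGF1R, IGFBP2 and IGFBP5 fell over the same period in both tissues, and the part of these cells was not tested. T cell markers moved the other way, and all 3 tested of the 4 listed were higher by day 55 in both tissues. The B cell marker CD79A rose in ileum from a mean of 6.96 at day 8 to 12.66 at day 55 and 12.21 at day 176, and in jejunum its means were 7.51, 8.82 and 7.60 with no call. The part of lymphocytes in the lower values of the members was not tested.

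Over the 18 group means of tissue, age and treatment, the members resembled each other to different degrees. These are descriptions over means that share arrays and normalization. Pearson's r was 0.93 between GHR and IGFBP3 and 0.90 between IGF2 and IGFBP5. IGF1 stood apart, with r from 0.035 with IGFBP5 to 0.62 with GHR. Among the 2221 named genes compared, the most alike were APOC3 for GHR (0.98), HSD17B8 for IGF2 (0.99), MCEE for IGF1 (0.91), UNC5B for IGF1R (0.96), C7H6orf52 for IGFBP2 (0.96), ACE for IGFBP3 (0.95) and ID4 for IGFBP5 (0.94).

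Other genes of the growth hormone and IGF pathway were taken from a list of 77, of which 35 had a probe. In ileum from day 8 to day 55, 14 of these were lower and 7 higher, beside 23% and 24.4% of all genes, and in jejunum 15 were lower and 7 higher, beside 18.9% and 18.1%. SOCS2, a feedback inhibitor of GHR signalling that growth hormone induces, was the gene of the list called in all 6 age comparisons, each time lower. Its mean level was 8.00 in jejunum and 7.56 in ileum at day 8, 6.68 and 4.87 at day 55, and 5.27 and 4.18 at day 176. The change to day 55 was −1.30 in jejunum and −2.66 in ileum, and the difference between them was called (−1.36, SE 0.33). SOCS2 was thus lower in ileum than in jejunum at day 55 (−1.78) and day 176 (−1.01), as GHR was.

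INS, the insulin gene, was well above background on every tissue array of day 8 (mean level 8.74 in jejunum and 8.79 in ileum) and on none of jejunum or day 55 ileum later. It was at least 17.4-fold lower in jejunum and at least 19.99-fold lower in ileum at day 55, taking the dimmest probe well above background on each array as the floor. IGFBP4, a further binding protein, fell by 1.29 in jejunum and by 1.57 in ileum from day 8 to day 55. SSTR1, SSTR5 and STC1 were, like INS and IGFBP4, called in 5 of the 6 age comparisons. Mean levels of SSTR1 at days 8, 55 and 176 were 3.67, 2.77 and 5.25 in jejunum and 3.62, 3.39 and 5.34 in ileum. Those of SSTR5 were 10.32, 8.39 and 9.33, and 10.69, 8.95 and 10.71. Those of STC1 were 5.31, 4.95 and 3.24, and 4.81, 2.77 and 3.61. At day 55 SSTR1 was not well above background on any jejunum array, nor STC1 on any ileum array. Among the listed genes of GHR signalling, STAT3, STAT5A, STAT5B, PTPN1 and SOCS2 were lower in jejunum at day 176 vs. day 55, and of these genes SOCS2 alone was called in ileum over the same period. The jejunum levels of PTPN1 spread widely at day 176 (3.92 to 8.87, SD 1.39), beside 8.46 to 9.26 at day 55. Whether the calls of pathway genes hold when single arrays are left out was not tested.

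In whole blood at day 8, IGF1 was higher than in either tissue, whereas IGF1R, IGFBP3, IGFBP5 and GHR were at or near background. This comparison had its own normalization over 35 arrays, so levels differ from those above. IGF1 had a lowest, median and highest level of 8.34, 8.91 and 9.65 in blood, 5.71, 5.95 and 6.43 in jejunum and 5.76, 6.47 and 7.46 in ileum. All blood arrays lay above all tissue arrays. IGF1 was 7.67-fold higher in blood than in jejunum (log2 difference 2.94, SE 0.15, limma adjusted p = 2.9e-17) and 5.81-fold higher than in ileum (2.54, SE 0.15, adjusted p = 2.22e-15).

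GHR was well above background in 0 of 24 blood readings (12 arrays, 2 probes) and IGFBP3 in 0 of 12. GHR was at least 5.77-fold higher in jejunum and at least 4.73-fold higher in ileum than in blood, and IGFBP3 at least 2.69-fold and 1.95-fold. IGFBP5 was above background on 1 of 12 blood arrays, with levels of 1.01, 5.14 and 6.14 (lowest, median and highest) against 8.80, 9.21 and 9.96 in jejunum. IGF1R was above background in 2 of 24 readings, with levels of 1.65, 3.70 and 5.57 against 6.85, 7.06 and 7.54 in jejunum. For these genes the blood values are near the limit of detection and the size of the difference is uncertain.

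IGFBP2 was present in blood at a level like that of the tissues, with 8.96, 9.66 and 10.43 in blood, 8.66, 8.99 and 9.47 in jejunum and 8.75, 9.26 and 10.48 in ileum. Its differences of 0.57 from jejunum (adjusted p = 0.00139, 1.48-fold) and 0.32 from ileum (adjusted p = 0.0662) were not called. In all, 1 gene was higher and 5 were lower in blood than in jejunum, beside 41.6% and 34% of all genes, and the same numbers held against ileum, beside 40.6% and 33.4%. The 5 include IGF2, whose probes disagreed, and without it 4 were lower. Enterocyte markers had a summed log2 level of 4.92 to 8.28 in blood and of 18.2 to 18.7 in the tissues, and 4 of 4 T cell and 4 of 4 tested myeloid markers were higher in blood.

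IGF2 in blood depended on the probe. The mean of the 5 probes was lower in blood than in jejunum (−2.06, SE 0.25, limma adjusted p = 9.19e-09) and than in ileum (−1.19, SE 0.25, adjusted p = 0.000101), although the latter was not called in T1 arrays alone (−0.72, adjusted p = 0.143). Singly, the probes differed from jejunum by −7.22 (A_72_P544532), −2.31 (A_72_P303139), −1.12 (A_72_P599193), −0.11 (A_72_P537638) and 0.44 (A_72_P537644). Against ileum the same probes gave −6.24, −1.60, −0.21, 0.76 and 1.31. The first probe was not well above background on any blood array while the others were, and the direction for IGF2 in blood is therefore not settled. With the brightest probe alone the difference from ileum was not called (−0.21, adjusted p = 0.504).

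**Figure D3:**
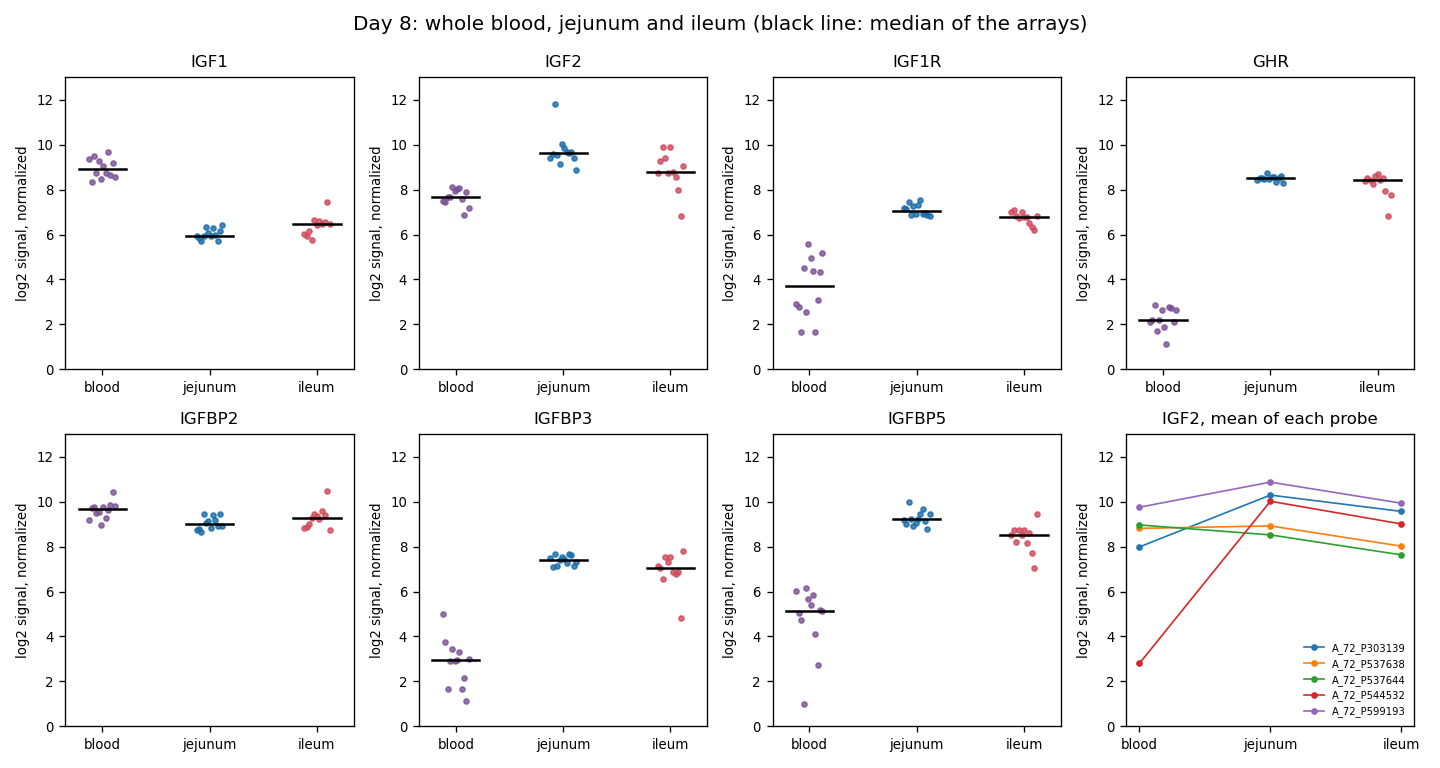
Normalized log2 signal (vertical axis) of the 7 genes on the day 8 arrays of blood (purple), jejunum (blue) and ileum (red), with black lines at the medians, and in the last panel the mean of each IGF2 probe. Blood IGF1 (8.34 to 9.65) lies above the tissues, and 1 IGF2 probe falls far below the other 4 in blood.

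The treatments were compared within each tissue and age. At day 8 no member was called in blood, jejunum or ileum, where any of the 3 comparisons called 0.00694%, 0.0212% and 1.35% of all genes. At an unadjusted p under 0.05, limma found 4 members in blood (T2 vs. T1), beside 3084 of 28832 genes, 1 in jejunum (T2 vs. T1), beside 2023 of 28236, and up to 4 in ileum (T3 vs. T1), beside 7055 of 28236. Of the 4 in blood, GHR and IGFBP5 were not well above background in either group, and the others were IGF2 and IGFBP2. The nearest was IGF1 in ileum, with levels in the fit of the day 8 tissue arrays of 7.13 to 7.55 in T3 and 7.86 to 8.85 in T1. These did not overlap (difference −0.78, limma adjusted p = 0.0551). At day 176 no member was called in either tissue, beside 2.1% of all genes in jejunum and 0.0106% in ileum. There, IGFBP2 was 0.72 higher (adjusted p = 0.0973) and IGF1R 1.42 higher (adjusted p = 0.128) in jejunum of T2 vs. T1, and at an unadjusted p under 0.05 limma found at most 2 members in a jejunum comparison (T2 vs. T1, beside 7112 of 28236 genes, and T3 vs. T2, beside 5039) and at most 1 in an ileum comparison (T3 vs. T2, beside 358).

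At day 55, 1 of 7 members was called between treatments in jejunum, beside 12.7% of all genes, and 3 of 7 in ileum, beside 16%. In jejunum IGF1R was 5.95, 5.34, 5.45 and 5.20 in the 4 pools of T1, 6.66, 6.41 and 6.34 in the 3 of T2, and 6.72, 6.94, 6.68 and 6.76 in the 4 of T3. Every T3 pool lay above every other pool, with T1 lowest. IGF1R was 2.45-fold higher in T3 vs. T1 (log2 difference 1.29, SE 0.32, limma adjusted p = 0.0109), and both of its probes gave this difference (1.32 and 1.26). T2 vs. T1 was 0.99 (adjusted p = 0.143), and was called after scaling to the 75th percentile (1.14, adjusted p = 0.0179 in limma), with jejunum arrays alone (1.08, adjusted p = 0.0189) and with the brightest probe (0.97, adjusted p = 0.0393).

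In ileum IGF1 was 6.98, 7.48, 6.90 and 7.15 in T1, 7.67, 7.29 and 7.51 in T2, and 6.96, 6.77, 6.47 and 6.81 in T3. T3 was thus lower than T2 without overlap (difference −0.74, SE 0.17, limma adjusted p = 0.0105), but not than T1. IGFBP2 was 9.03, 9.39, 9.14 and 9.07 in T1, 9.46, 9.24 and 9.45 in T2, and 8.90, 8.62, 8.27 and 8.64 in T3, with all T3 pools below all others. It differed by −0.78 in T3 vs. T2 (SE 0.16, adjusted p = 0.00459), and by −0.55 in T3 vs. T1 (adjusted p = 0.0169, 1.46-fold), which was below the fold required.

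IGFBP5 went the other way in ileum, with 8.98, 8.68, 8.40 and 8.20 in T1, 8.52, 8.91 and 8.62 in T2, and 9.72, 9.07, 9.63 and 9.06 in T3. T3 lay above both other groups, and the difference from T1 was 0.80 (SE 0.23, limma adjusted p = 0.023). This call ended without T1 pool 11 (0.75) or 12 (0.68) or T3 pool 1 (0.69) or 3 (0.72), and that of IGF1 without T2 pool 5 (−0.65, adjusted p = 0.0643). Fitted with all 67 tissue arrays, the differences of IGF1 (−0.71), IGFBP5 (0.79) and IGF1R in jejunum (1.25) were close to these values but their calls were lost (adjusted p from 0.0888 to 0.175), that of IGFBP2 was kept, and IGF1R was called lower in ileum of T3 vs. T2 (−1.74).

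The T3 arrays of day 55 lay on other slides than those of T1 and T2 in both tissues, so that T3 and slide cannot be told apart. IGF1R was the member whose T3 vs. T1 difference was called different between the tissues, with 1.29 in jejunum and −0.31 in ileum (difference −1.60, SE 0.45, limma adjusted p = 0.0435), beside 6.08% of all genes in any of the 3 such comparisons. In ileum its 2 probes gave −0.79 and 0.17 and thus opposite signs, and the ileum pools of T3 were 4.49, 6.0, 4.16 and 4.19. Without pool 2, the highest of these, IGF1R was called lower in ileum of T3 than of T1 (−0.76) and of T2 (−1.07). SOCS2, from the pathway list, also went opposite ways in T3 vs. T1, being higher in jejunum (1.31, adjusted p = 0.00624 in limma) and lower in ileum (−1.003, adjusted p = 0.0278). In jejunum of T3 vs. T1, 2 of 3 smooth muscle, 2 of 4 T cell and 1 of 2 endothelial markers were higher, and in ileum 1 of 2 endothelial markers, and their part in the values was not tested.

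**Figure D4:**
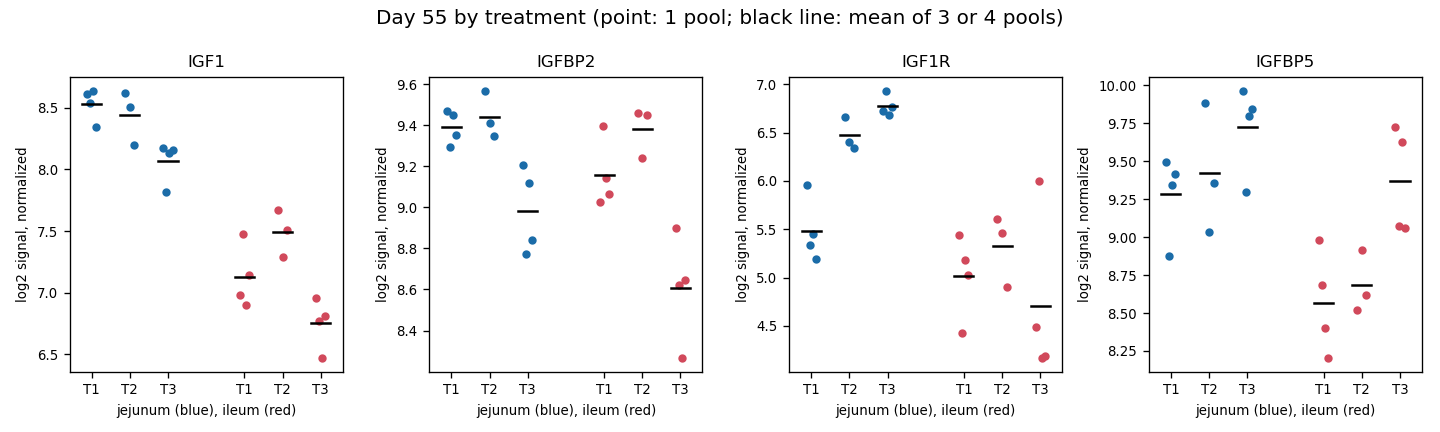
Normalized log2 signal (vertical axis) at day 55 of IGF1, IGFBP2, IGF1R and IGFBP5 in T1, T2 and T3 (horizontal axis; jejunum blue, ileum red), with 1 point per pool and black lines at the means. Ileum IGFBP2 of T3 (8.27 to 8.90) lies below T1 and T2, and jejunum IGF1R of T3 (6.68 to 6.94) lies above them.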

How the data were processed

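The intensity of each spot was deposited by the authors as Agilent Feature Extraction 10.7.3.1 wrote it (file headers), with background subtracted, on a linear scale and not normalized between arrays. The methods describe log2 transformation, quantile normalization and a filter at the 20th percentile in GeneSpring, which was followed here. Here, deposited intensities under 1 were set to 1 before log2. Control spots and those that the scanner software had marked (non-uniform or outlier) did not enter, replicate spots were averaged by probe, and a probe had to have a value on all arrays of a fit, by which 1 probe each of IGF1R and IGF2 was lost over all tissue arrays through 1 array (ileum T3 pool 2 of day 176). Arrays of a fit were quantile normalized, and a probe was kept when, in 1 group or more, all arrays reached the 20th percentile. Probes of a gene symbol or accession were averaged. RefSeq gave a symbol for 5461 probes (12.5%). The deposited table of log2 values was not used, because some of its columns do not hold the array they are named for.

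Group means were fitted in limma 3.58.1 (R 4.3.3) over 67 tissue arrays (30816 genes), 35 arrays of day 8 (32953 genes), the tissue arrays of each age and the 12 blood arrays, with the 3 treatments weighted equally in comparisons of ages and tissues. p-values were adjusted (Benjamini-Hochberg) over all genes of a comparison. Replicates are pools, and the number of arrays limits the precision. Tests were tried on simulated data. The members, gene lists and comparisons were chosen with earlier results of these data known. The named members are those listed. SOCS2, INS, SSTR1, STC1, IGFBP4 and SSTR5 ranked first among the pathway genes by number of calls over the 6 age comparisons and then by mean size of change. STAT3, STAT5A, STAT5B and PTPN1 were named outside that ranking.

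Arrays of jejunum and ileum share pool numbers, and in the study's supplement, which names no age, each pool of a treatment has a counterpart from the same sows in the other treatments (a sow set). Deviations from the group means correlated at 0.1765 on average between jejunum and ileum of a pool at day 8, 0.0743 at day 55 and 0.0496 at day 176. The pairing was used as an alternative only. Other alternatives were scaling, background correction, filters, probe choice, T1 arrays alone and leaving out each array.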

Additional observations from a re-analysis of the deposited data

Results flagged for a closer look

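In 7 of 112 groups of 4 pools tested (6.25%), 1 pool lay apart from the others by Dixon's ratio (the gap to the nearest pool over the range), where chance gives about 1 in 20. The ratio was 0.924 for IGF2 in jejunum T3 at day 8 (pool 3, 13.16), 0.859 for IGFBP2 in the same group (pool 4, 10.90), 0.902 for IGF1 in ileum T1 at day 8 (pool 11, 8.85) and 0.996 for GHR in ileum T1 at day 55 (pool 11, 8.25). It was 0.872 for IGF1 in jejunum T3 at day 55 (pool 2, 7.82), 0.881 for GHR in jejunum T3 at day 176 (pool 4, 7.53) and 0.854 for IGF1R in jejunum T1 at day 176 (pool 9, 1.91).

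The change from day 8 to day 55 differed between ileum and jejunum in limma for IGF1 (−1.59), IGFBP3 (−1.53) and GHR (−2.14). IGF1R was also called (−1.33), but not in T1 arrays alone (−0.36), after scaling to the 75th percentile (−0.07) or after normexp correction (−0.06). From day 55 to day 176 the change differed between the tissues for IGF1R (2.01, but 0.43 after scaling to the 75th percentile and 0.46 after normexp correction, neither called). From day 8 to day 176 it differed for IGF1 (−1.07), IGFBP2 (−0.69) and GHR (−2.13). In T1 arrays alone IGF1 (−1.02) and IGFBP2 (−0.48) were not called for that period. The T3 vs. T1 difference of IGF1R at day 55 differed between the tissues by −1.60.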

How the results depend on the processing

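Of 102 member values with a call or a test of an age, tissue, blood or treatment difference, 93 kept their call under scaling to the 75th percentile, 90 under normexp background correction, 100 with the brightest probe, and 102 with no filter, with a filter on probes well above background, and with marked spots kept (chosen after seeing the data). In T1 arrays alone 85 of 98 were kept. IGF1R from day 55 to day 176 in jejunum turned from −0.96 to 0.0039 under the 75th percentile. The cause was not tested.

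Under the 75th percentile, members called became 0 in place of 1 for the difference of changes from day 55 to day 176, 1 in place of 2 for that change in ileum, 1 in place of 4 in jejunum, and 2 in place of 1 for the treatments in jejunum at day 55. With normexp they became 0 for the difference of changes from day 55 to day 176, 0 for that change in ileum, 1 in jejunum, and 3 in place of 5 for ileum vs. jejunum at day 55. In T1 arrays they were 2 and 1 (in place of 1 and 3) for the difference of changes from day 55 and from day 8 to day 176, 1 in place of 2 for day 176 vs. 55 in ileum, and 3 in place of 5 and 1 in place of 2 for ileum vs. jejunum at days 55 and 8. A filter on probes well above background gave 1 in place of 0 for the treatments in ileum at day 8 (IGF1). With all 67 tissue arrays in 1 fit the treatments gave 2 in place of 0 in jejunum at day 176 and 0 in place of 1 in jejunum at day 55, where jejunum alone and the brightest probe gave 2.

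Leaving out 1 array gave 1 to 2 members for the difference of changes from day 55 to day 176, 1 to 2 for that change in ileum and 2 to 4 in jejunum, 0 to 2 for ileum vs. jejunum at day 8, and 2 to 5, 0 to 4 and 1 to 2 for the treatments in ileum at day 55, ileum at day 8 and jejunum at day 55. Without ileum T1 pool 12 of day 8, IGF1 (−0.87), IGF1R (0.59), IGF2 (1.55) and IGFBP2 (−0.82) were called in T3 vs. T1, and without pool 9 IGF1 (−0.88) and GHR (0.89, and 1.07 in T2 vs. T1). At day 55 IGFBP2 was called in ileum of T3 vs. T1 without T1 pool 9 (−0.59) or T3 pool 1 (−0.65), and IGF2 in jejunum without T3 pool 2 (0.88). IGFBP3 was called for the difference of changes from day 8 to day 176 (−0.84 with all arrays) without ileum T1 pool 11 of day 8 (−1.04) or ileum T1 pool 9 (−1.003), T1 pool 12 (−0.96) or T3 pool 2 (−1.02) of day 176. The pool as a random replicate block (correlation 0.0494 over the tissue arrays) left 98 of 98 member calls as they were, and the sow set as a fixed replicate block 4 of 4, all of them treatment differences of day 55, although whether the sow sets hold for the pools of day 55 is not given in the sources used here. The slide could not be fitted as a random block, since each group lay on 1 slide.

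The 75th percentile moved the median of all genes from 0.01 to 0.49 for day 176 vs. 55 in jejunum, from 0.11 to 0.45 for day 55 vs. 8 in ileum, from 0.03 to 0.46 for ileum vs. jejunum at day 55, and from 0.21 to 1.27 for blood vs. jejunum. The share of higher among called genes became 81.9% in place of 54.3%, 71.8% in place of 51.5%, 75.7% in place of 49.7% and 72.7% in place of 55.1%. For day 176 vs. 8 it became 72.2% (55%) in jejunum and 65.6% (53.3%) in ileum, for day 176 vs. 55 in ileum 35.4% (54.3%), for ileum vs. jejunum 6.67% (18.3%) at day 8 and 28.4% (48.6%) at day 176, and for blood vs. ileum 73.6% (54.9%). For the differences of changes it became 74.9% (49.8%), 17.5% (45.5%) and 36.8% (47.3%), and for T3 vs. T1 and T3 vs. T2 in ileum 83.7% (57.8%) and 94.1% (65.8%) at day 55 and 72% (41.6%) and 76.9% (62.5%) at day 8. With normexp the share was 3.32% (18.3%) for ileum vs. jejunum at day 8, 29% (41.6%) and 45.7% (57.8%) for T3 vs. T1 in ileum at days 8 and 55, and in jejunum at day 176 58.6% (44%) for T2 vs. T1 and 32% (62.1%) for T3 vs. T2, where the 75th percentile gave 7.67% (44%) for T2 vs. T1.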
